A study of Mus musculus with 4 samples.

Results

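The 8 genes described here encode the core of the spindle assembly checkpoint (Mad1l1, Mad2l1, Bub1, Bub1b, Bub3 and Ttk) and the activators of the anaphase-promoting complex (Cdc20 and Fzr1). They were picked as a named set, with earlier results of these data known, and matched by gene symbol, and all 8 were found among the 23420 genes of the expression table. RNA was measured in pachytene spermatocytes, the male germ cells of meiotic prophase in which homologous chromosomes are synapsed, sorted by FACS with a DNA dye from wild-type C57BL/6 mice of 23 weeks of age. The sorted cells were cultured for 24 h with DMSO (Ctrl, n = 2 libraries) or with AZ20, which inhibits the kinase ATR, at 10 μM (n = 2 libraries). The study's methods state that each experiment divided the cells of 1 mouse over treatment and control. Libraries of the same replicate number were therefore taken as partners, although which libraries share a mouse is not stated. The study used this culture to ask about silencing of the sex chromosomes, and the same libraries are used here for transcripts of the machinery that controls entry into anaphase.

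The spindle assembly checkpoint delays anaphase until every kinetochore is attached to spindle microtubules. At an unattached kinetochore, the kinase TTK (also called MPS1) recruits BUB1 with BUB3, and a MAD1L1 scaffold then converts MAD2L1 into the form that joins BUB1B, BUB3 and CDC20 in the mitotic checkpoint complex. That complex blocks the anaphase-promoting complex (APC/C), a ubiquitin ligase that needs CDC20 to mark securin and cyclin B for destruction at the start of anaphase and FZR1 (also called CDH1) at mitotic exit and in G1. In spermatocytes the same machinery acts at the meiotic divisions, which follow pachytene.

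Promoters of many genes of late cell cycle phases hold a CHR element near the transcription start, which reads TTTGAA in its most common form and TTCGAA in another. CCAAT boxes often lie upstream of it. The RefSeq promoter windows of the members (GRCm38.p6, 250 bases before to 50 bases after the start) were searched for these letters and for AACNGT, a core that MYB factors bind, on both strands. The members have 10 windows, since Mad1l1 and Bub3 have more than 1 start. CHR letters were present for 5 of the 8 members (Bub1, Bub1b, Bub3, Ttk and Cdc20), compared with 17.2% of the 7638 tested genes that have a window in the RefSeq table. CCAAT was present for 6 of the 8, compared with 44.1% of those genes, and AACNGT for 1 of the 8, Cdc20, compared with 26.9%. Mad1l1 and Mad2l1 had no match to any of these letters, and Fzr1 had CCAAT alone. The Mad2l1 window ended at 66535270 on chromosome 6, before the GENCODE gene start at 66535390, so bases around that start were not searched. Stretches of 6 windows are shown because they set the promoters that hold CHR letters beside that of Fzr1, which does not. They run 5′ to 3′ on the strand of the gene and end 25 bases after the start, and capitals mark every match. A match on the reverse strand appears as TTCAAA for the common CHR form, as ATTGG for the CCAAT box and as ACNGTT for the MYB core.
Cdc20 chr4:118437319-118437463 (minus strand): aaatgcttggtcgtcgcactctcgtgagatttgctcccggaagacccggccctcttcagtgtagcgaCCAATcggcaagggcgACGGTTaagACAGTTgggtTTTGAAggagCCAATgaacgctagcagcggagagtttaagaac
Bub1 chr2:127831835-127831979 (minus strand): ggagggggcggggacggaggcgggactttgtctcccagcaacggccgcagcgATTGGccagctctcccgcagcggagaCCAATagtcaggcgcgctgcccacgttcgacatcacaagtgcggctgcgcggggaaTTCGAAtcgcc
Bub3 chr7:131560250-131560394 (plus strand): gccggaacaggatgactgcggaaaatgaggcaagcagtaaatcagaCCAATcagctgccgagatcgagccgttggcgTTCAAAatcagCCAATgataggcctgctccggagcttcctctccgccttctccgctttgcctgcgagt
Ttk chr9:83834569-83834713 (plus strand): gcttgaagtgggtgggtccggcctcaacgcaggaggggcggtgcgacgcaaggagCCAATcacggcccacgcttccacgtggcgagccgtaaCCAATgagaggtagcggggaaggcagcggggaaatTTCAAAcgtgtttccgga
Bub1b chr2:118598016-118598235 (plus strand): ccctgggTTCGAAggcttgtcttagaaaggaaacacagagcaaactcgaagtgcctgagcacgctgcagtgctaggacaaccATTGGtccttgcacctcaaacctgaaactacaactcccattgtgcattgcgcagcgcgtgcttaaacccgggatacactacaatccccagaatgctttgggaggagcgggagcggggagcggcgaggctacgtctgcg
Fzr1 chr10:81378346-81378490 (minus strand): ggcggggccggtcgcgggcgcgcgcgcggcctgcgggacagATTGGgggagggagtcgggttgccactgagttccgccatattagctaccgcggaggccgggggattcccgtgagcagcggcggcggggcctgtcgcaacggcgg
In Cdc20 the CHR match lies from position -18 to -13 relative to the start, between CCAAT matches at -53 and at -8, with reverse AACNGT matches at -37 and -28. The Ttk match at position 8 follows CCAAT matches at -65 and -28, and the Bub1 match at position 15 follows a CCAAT match at -42. The CHR letters of Bub3 begin at -43, between its CCAAT matches, relative to the start used for the stretch shown. Relative to its other start the same letters begin at -167. The GENCODE gene of Bub3 starts at 131560222, and that of Fzr1, on the minus strand, at 81378516. The stretches shown for Bub3 and Fzr1 thus lie inside the GENCODE genes. Bub1b holds TTCGAA at -188 and, beyond the stretch shown, TTTGAA at 41. No matches of different motifs overlapped in these windows. Such matches are a description of letters and not of bound sites.

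Levels are given as TPM, reads per gene length scaled to the same total in each library. Read totals recovered from these values were 14113686 and 15985062 for the Ctrl libraries, and the AZ20 libraries were deeper, at 20343313 and 18631242. All 9 markers of pachytene spermatocytes examined, among them Sycp3, Hormad1 and Hspa2, were above 1 TPM in every library, and their summed level was 12140 to 12450 TPM. The summed level of 8 Sertoli cell markers was 1.39 to 2.0 TPM, that of 5 Leydig cell markers 0.866 to 2.31 TPM, that of 3 macrophage markers 0.101 to 1.28 TPM and that of 4 peritubular myoid cell markers 2.10 to 4.44 TPM. Of these, Sox9, Wt1, Rhox5 and Fshr, and Cyp11a1, Cyp17a1, Hsd3b1 and Insl3, were at 0 in every library. Most of the Sertoli, Leydig and myoid sums came from Dhh (1.34 to 1.68 TPM), Star (0.866 to 2.31 TPM) and Tagln (1.59 to 2.83 TPM). The 8 spermatogonial markers summed to 43.1 and 54.6 TPM in Ctrl and 53.9 and 75.5 TPM in AZ20, of which Id4 gave the larger part, with Stra8 and Dmrt1 at 0. The 7 round spermatid markers were all detected and moved with both replicate and condition, at 369 and 154 TPM in Ctrl and 783 and 257 TPM in AZ20 for replicates 1 and 2. Of all marker genes tested 0 were called with limma, and the part of these cells in the results below was not tested. In bulk RNA, fewer cells of a type and less RNA per cell cannot be told apart.

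All 8 checkpoint and activator genes were expressed and all were among the 10316 genes tested, those whose mean exceeded 1 TPM in one group or the other. None of them rose or fell by the criteria of the study, a change of 2-fold or more and a Benjamini-Hochberg adjusted p below 0.05, here from limma on log2(TPM + 1). Thus 0 of 8 were called, compared with 2.33% of all genes tested (2.28% higher and 0.0485% lower, or 4.11% and 0.223% when replicate numbers enter as a block). At an unadjusted p under 0.05 the count was also 0 of 8, compared with 9.16% of all genes, although with quantile normalization it was 1, Fzr1 (log2 change -0.62, limma adjusted p = 0.505). With voom on the recovered reads 0 of 8 were called, compared with 2.33% of all genes higher and 0.0291% lower, and with voom and the block 0 of 8, compared with 3.34% and 0.107%. The block in limma left the count at 0 of 8. The 8 log2 changes lay between -0.46 (Fzr1) and 0.18 (Bub1), with 4 above and 4 below 0. Their median was -0.04, compared with 0.07 for all genes tested, and their median absolute change was 0.15, compared with 0.22. The median depended on the normalization. With voom on the recovered reads it was -0.13 for the members and 0.0002 for all genes, and with quantile normalization -0.12 and -0.07. The AZ20 and Ctrl libraries did not overlap for 3 members, Fzr1, Mad1l1 and Bub3, all lower in AZ20, compared with 11.7% of all genes for which AZ20 was lower without overlap. No member was higher without overlap, compared with 26.4% of all genes. All 8 members lie on autosomes, whereas the shares over all genes here and below also cover genes of the X and Y chromosomes. The study reported hardly any differentially expressed genes on autosomes and most expressed X-linked genes as upregulated. Shares over autosomal genes alone were not computed.

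**Figure D1:**
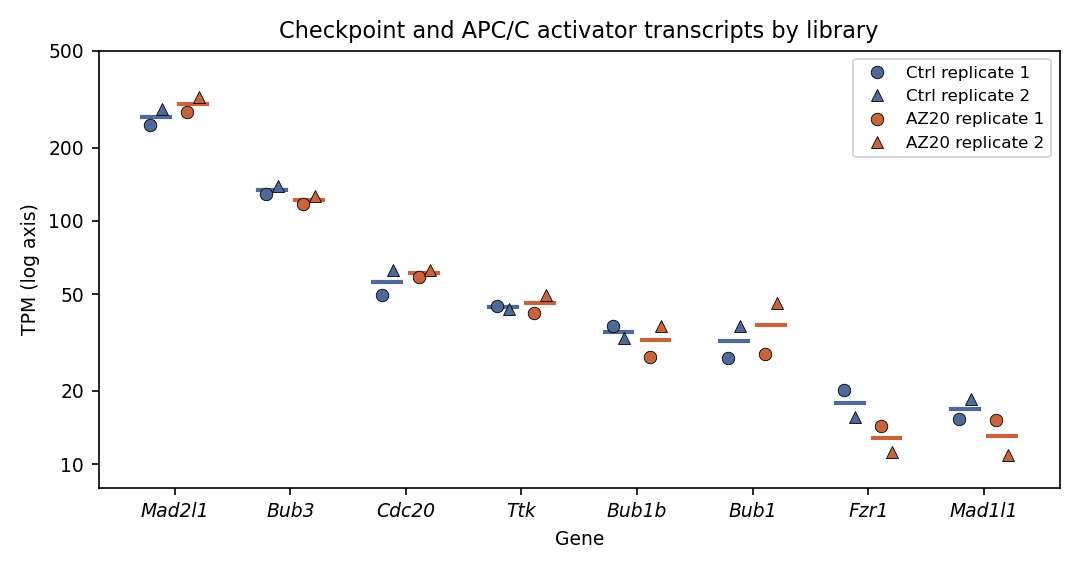
TPM of the 8 genes in each library on a log axis, with circles for replicate 1, triangles for replicate 2, Ctrl in blue and AZ20 in orange, and bars at the group means (n = 2). Mad2l1 lies highest at 247 to 323 TPM and Bub3 next at 117 to 139 TPM, and the Ctrl and AZ20 points interleave or nearly touch for most genes.

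In order of level, which can be set between genes because TPM is per length, Mad2l1 was the most abundant of the 8 transcripts and Mad1l1 and Fzr1 the least. The mean levels in Ctrl spanned 15.9-fold and placed the members between percentile 61.3 (Mad1l1) and 92.9 (Mad2l1) of the genes tested. In Ctrl the order of mean TPM was Mad2l1, Bub3, Cdc20, Ttk, Bub1b, Bub1, Fzr1 and Mad1l1. The libraries of neighbours in this order overlapped only for Bub1b with Bub1 and for Fzr1 with Mad1l1. In AZ20 the 4 most abundant kept their places, while Bub1 stood above Bub1b and Mad1l1 above Fzr1, and in both of these pairs, as for Ttk with Bub1, the libraries overlapped.

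Mad2l1 encodes the soluble checkpoint protein that binds CDC20. It had 247 and 288 TPM in the Ctrl libraries and 279 and 323 TPM in the AZ20 libraries, for replicates 1 and 2 in each case. Within each replicate pair the AZ20 library was the higher, but the groups overlapped. Its mean was 268 ± 29.0 TPM (SD, n = 2) without the inhibitor, compared with 301 ± 31.3 TPM (SD, n = 2) with it. The change of log2(TPM + 1) was 0.17 (standard error 0.17, limma adjusted p = 0.847), with a 95% interval of 0.854-fold to 1.48-fold.

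Mad1l1 encodes the coiled-coil scaffold that carries MAD2L1 to kinetochores. It had 15.3 and 18.5 TPM in Ctrl and 15.2 and 10.9 TPM in AZ20. The lowest Ctrl and the highest AZ20 library lay next to each other, and AZ20 replicate 2 stood below the other 3 libraries. The log2 change was -0.36 (standard error 0.25, limma adjusted p = 0.775), made of -0.01 in the first pair and -0.71 in the second, and it was -0.13 without AZ20 replicate 2. The 95% interval ran from 0.514-fold to 1.18-fold. The gene spans 312864 bases of chromosome 5 (140008689 to 140321552, minus strand, GRCm38), and of the 5 GENCODE genes that overlap it 1, the antisense gene Gm16121, shares exon sequence with it. Use of strand in the counting is not stated, so reads of genes that overlap on opposite strands could not be told apart.

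BUB1, BUB1B and their partner BUB3 are the checkpoint proteins that bind the kinetochore scaffold KNL1. Bub3, a WD-repeat protein gene, had 129 and 139 TPM in Ctrl and 117 and 127 TPM in AZ20. Every AZ20 library was below every Ctrl library by a small margin, and the pairs moved alike, by -0.14 and -0.13 on the log2 scale. The fitted change was -0.14 (standard error 0.17, limma adjusted p = 0.882), with a 95% interval of 0.694-fold to 1.20-fold. Bub1b, which encodes BUBR1, the inhibitor of CDC20 in the checkpoint complex, had 37.1 and 33.1 TPM in Ctrl and 27.7 and 37.0 TPM in AZ20. Its libraries overlapped and its pairs moved in opposite directions, by -0.41 and 0.16 (fitted change -0.13, standard error 0.22, limma adjusted p = 0.931, 95% interval 0.635-fold to 1.32-fold). Bub1, which encodes the kinase that marks centromeric histone H2A for shugoshin, had 27.3 and 37.1 TPM in Ctrl and 28.4 and 46.1 TPM in AZ20. Replicate 2 was the higher in both conditions, by 1.36-fold in Ctrl and 1.62-fold in AZ20, the widest replicate gap of the 8 genes. Its fitted change was 0.18 (standard error 0.29, limma adjusted p = 0.918), with a 95% interval of 0.706-fold to 1.82-fold.

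Ttk encodes the kinase at the head of the checkpoint. It had 44.7 and 43.6 TPM in Ctrl and 41.9 and 49.7 TPM in AZ20, so that the Ctrl libraries lay between the AZ20 libraries. The replicates of Ctrl differed by 1.03-fold, the narrowest gap of the 8 genes. The log2 change was 0.05 (standard error 0.19, limma adjusted p = 0.975), with a 95% interval of 0.751-fold to 1.42-fold.

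The activators of the APC/C stood at different levels. Cdc20, which acts at the metaphase to anaphase transition, had 49.4 and 63.0 TPM in Ctrl and 58.8 and 63.0 TPM in AZ20. Ctrl replicate 1 was below the other 3 libraries, which lay close together. The log2 change was 0.12 (standard error 0.20, limma adjusted p = 0.921), with a 95% interval of 0.783-fold to 1.52-fold. Fzr1, which activates the APC/C from late mitosis into G1, had 20.1 and 15.7 TPM in Ctrl and 14.4 and 11.2 TPM in AZ20. Both AZ20 libraries were below both Ctrl libraries, and the change was alike in the pairs, at -0.46 and -0.45. The AZ20 mean of 12.8 ± 2.27 TPM (SD, n = 2) was 0.714 of the Ctrl mean of 17.9 ± 3.14 TPM (SD, n = 2). The fitted log2 change of -0.46 had a standard error of 0.25 (limma adjusted p = 0.688). Its 95% interval ran from 0.486-fold to 1.09-fold, so that neither a change of 0 nor a 2-fold fall lay outside it. On chromosome 4 the exons of Cdc20 (118432901 to 118437352, minus strand) overlap those of Elovl1 on the opposite strand, which had 23.1 to 33.9 TPM. On chromosome 10 those of Fzr1 (81366222 to 81378516, minus strand) overlap Mfsd12, which had 0.466 to 1.32 TPM.

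**Figure D2:**
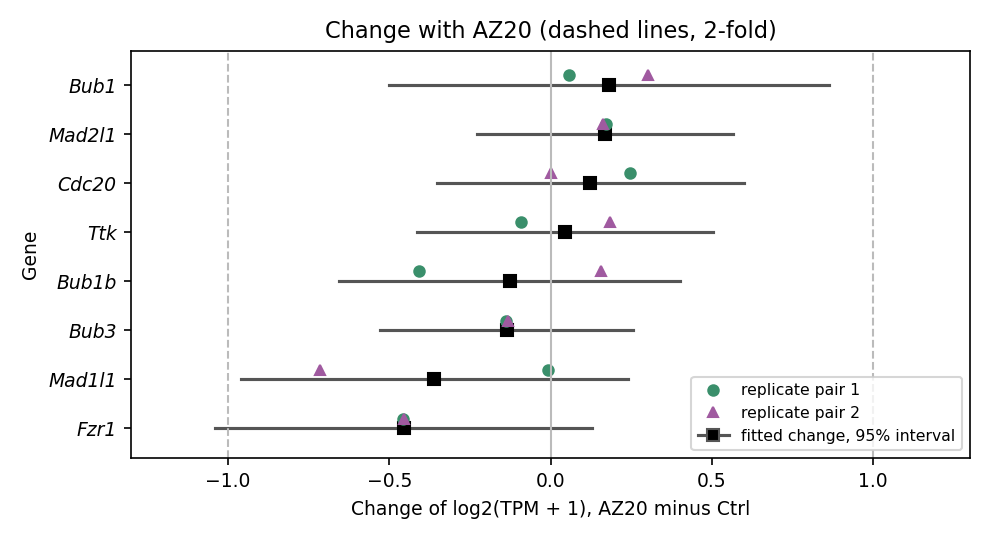
Change of log2(TPM + 1), AZ20 minus Ctrl, for each gene, with squares for the fitted change, lines for its 95% interval, a circle for the first and a triangle for the second replicate pair, and dashed lines at 2-fold. All intervals cross 0, and that of Fzr1, from -1.04 to 0.13, is the one that reaches beyond 2-fold.

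Across the 8 genes the change had the same sign in both replicate pairs for 6, of which 3 were lower (Fzr1, Mad1l1 and Bub3) and 3 were higher (Mad2l1, Bub1 and Cdc20). Of all genes tested, 19.4% were lower and 36.1% higher in both pairs. The change was under 0.01 in size in 1 pair of Cdc20 (0.0016) and in 1 pair of Mad1l1 (-0.0067), so their count among these is marginal. Counting error was smaller than the widest gaps between replicates. The members had 331 to 7319 recovered reads in a library, which gives a counting error of 1.17% to 5.50% of the level, whereas replicates differed by 1.03-fold to 1.62-fold. Bub1 shows this most clearly, because its AZ20 replicates, with 896 and 1311 reads, carry a counting error of 3.34% and 2.76%. For Bub1, Fzr1, Bub3 and Ttk the gene length implied by the recovered reads was not within 3% of the annotated exon length, so their reads could not be checked in this way. The sign was not stable for Bub1, Bub1b, Ttk and Cdc20. Without AZ20 replicate 2 the change of Bub1 was -0.16 and that of Ttk -0.07, without Ctrl replicate 1 that of Bub1 was -0.04 and that of Cdc20 -0.05, and without AZ20 replicate 1 that of Bub1b was 0.08. Ttk also changed sign with quantile normalization (-0.07), under which the median over all genes shifted by -0.14, and with voom (-0.04).

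Ratios of transcripts were taken within each library for the APC/C activators, for Bub1b with Bub1 and for Mad2l1 with Mad1l1. The Cdc20 to Fzr1 ratio of TPM was 2.45 and 4.01 in Ctrl and 4.08 and 5.63 in AZ20. Both AZ20 libraries were above both Ctrl libraries, although Ctrl replicate 2 and AZ20 replicate 1 were nearly equal. The geometric mean ratio was 1.53-fold higher in AZ20, at 1.66-fold in the first pair and 1.40-fold in the second (exact two-sided permutation p = 0.333, the smallest that 2 libraries against 2 allow). The Mad2l1 to Mad1l1 ratio was 16.2 and 15.6 in Ctrl and 18.3 and 29.7 in AZ20. AZ20 replicate 2 stood apart, and the difference was 1.47-fold (exact two-sided permutation p = 0.333), with 1.13-fold in the first pair and 1.90-fold in the second. The Bub1b to Bub1 ratio was 1.36 and 0.891 in Ctrl and 0.974 and 0.803 in AZ20, with overlapping groups (0.804-fold, exact two-sided permutation p = 0.667). With 3 ratios tested and these smallest values, no ratio could pass a threshold of 0.05.

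**Figure D3:**
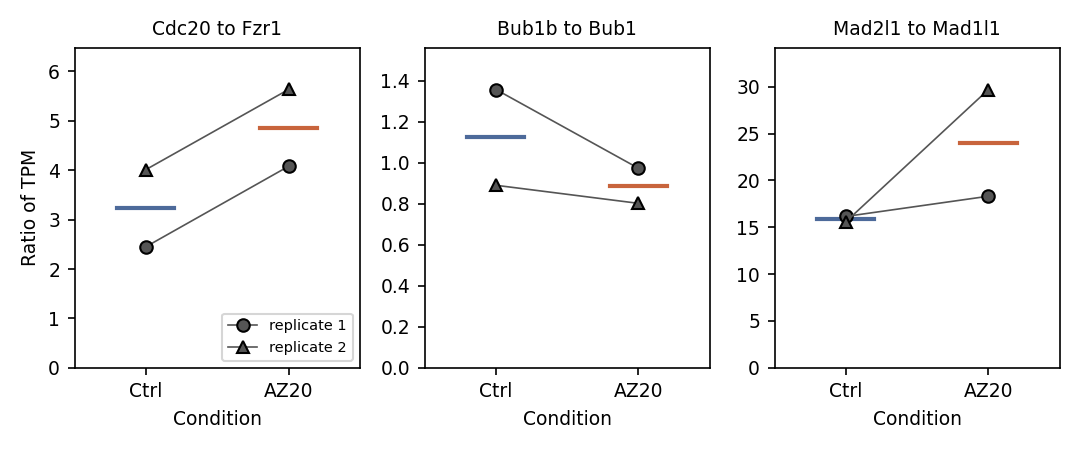
Ratios of TPM within a library for Cdc20 to Fzr1, Bub1b to Bub1 and Mad2l1 to Mad1l1, each on its own axis from 0, with circles for replicate 1, triangles for replicate 2, a line joining each pair and bars at the group means. The Cdc20 to Fzr1 ratio is higher in AZ20 in both pairs (1.66-fold and 1.40-fold), and AZ20 replicate 2 has the highest Mad2l1 to Mad1l1 ratio, at 29.7.

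Other genes of the pathway were examined as 5 lists, of which 58 of 59 genes were tested. By the same limma test 0 of the 58 were called in either direction, with voom on the recovered reads also 0, and their median log2 change was 0.01. At an unadjusted p under 0.05 there were 4, all higher in AZ20, namely Anapc2, Anapc10, Zwilch and Pttg1, of which Anapc10 was named after its value was seen. Of all genes tested, 8.03% were higher at that p.

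Of the 14 core subunits of the APC/C, all were tested and 0 were called, with a median log2 change of 0.05. Anapc13, a small subunit, had 856 and 790 TPM in Ctrl and 764 and 884 TPM in AZ20, and Cdc26 had 136 to 185 TPM over the 4 libraries. Anapc2, the cullin of the catalytic core, had 8.51 and 10.9 TPM in Ctrl and 14.6 and 16.6 TPM in AZ20 (a log2 change of 0.63 with a standard error of 0.24, limma adjusted p = 0.471). Its groups did not overlap, as was the case for Anapc1, Anapc7 and Anapc10, all with AZ20 higher. These are 4 of 14, close to the 26.4% of all genes tested that were higher without overlap, and Anapc1 and Anapc7 were named after their values were seen. Anapc10, which helps the complex to bind substrates, had a log2 change of 0.46 (limma adjusted p = 0.514), and Anapc11, the RING subunit, had the lowest of the list at -0.18.

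Of the 8 genes for APC/C ubiquitin-conjugating enzymes, inhibitors and checkpoint silencing, 7 were tested and 0 were called (median log2 change -0.13). Mad2l2, a relative of Mad2l1 that can bind FZR1, had 829 and 919 TPM in Ctrl and 957 and 667 TPM in AZ20, above Mad2l1 in every library. Ube2c and Ube2s, which start and extend ubiquitin chains on substrates, had log2 changes of -0.36 and 0.07, the lowest and highest of the list. Fbxo5, the gene of the APC/C inhibitor EMI1, was at 0 and 1.25 TPM in Ctrl and 0.723 and 0.970 TPM in AZ20 and was not tested. It is named as the one gene of the lists that was left out.

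Of the 17 genes of the kinetochore platform on which the checkpoint is built, all were tested and 0 were called (median log2 change 0.01). Zwilch, a subunit of the RZZ complex that brings MAD1L1 to kinetochores, had 12.2 and 12.1 TPM in Ctrl and 20.1 and 22.6 TPM in AZ20. The AZ20 libraries stood well above the Ctrl libraries, and the log2 change of 0.76 was the highest of the list (standard error 0.21, limma adjusted p = 0.242). Nuf2 and Spc25, of the NDC80 complex that binds microtubules, had the highest means over the 4 libraries, with Pmf1 close to them and above Nuf2 in the AZ20 mean (145 and 142 TPM), named after its values were seen. Nuf2 had 226 and 159 TPM in Ctrl and 154 and 130 TPM in AZ20, the lowest change at -0.42 (limma adjusted p = 0.672). Spc25 had 167 and 214 TPM in Ctrl and 126 and 176 TPM in AZ20.

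Of the 8 genes of the chromosomal passenger complex and of centromere protection, all were tested and 0 were called (median log2 change 0.13). Cdca8, which encodes borealin, had 187 to 220 TPM over the libraries. Changes ran from -0.25 for Gsg2, the gene of the histone kinase haspin, to 0.28 for Sgol1, which encodes a shugoshin that shields centromeric cohesin.

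Of the 12 APC/C substrates, all were tested and 0 were called (median log2 change -0.06). Pttg1, which encodes securin, the inhibitor of separase, had 343 and 273 TPM in Ctrl and 461 and 422 TPM in AZ20. Both AZ20 libraries were above both Ctrl libraries, and the log2 change was 0.53 (standard error 0.17, limma adjusted p = 0.361). Gmnn, the gene of the replication inhibitor geminin, was similarly abundant, at 344 and 388 TPM in Ctrl and 477 and 438 TPM in AZ20 (log2 change 0.32, limma adjusted p = 0.615). The ends of the list were cyclins at low or uneven levels. Ccna2 was under 1 TPM in 3 libraries and at 2.47 TPM in AZ20 replicate 2, with a log2 change of 0.69, and Ccna1 had 17.3 and 14.8 TPM in Ctrl and 17.3 and 6.52 TPM in AZ20, with a change of -0.54.

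**Figure D4:**
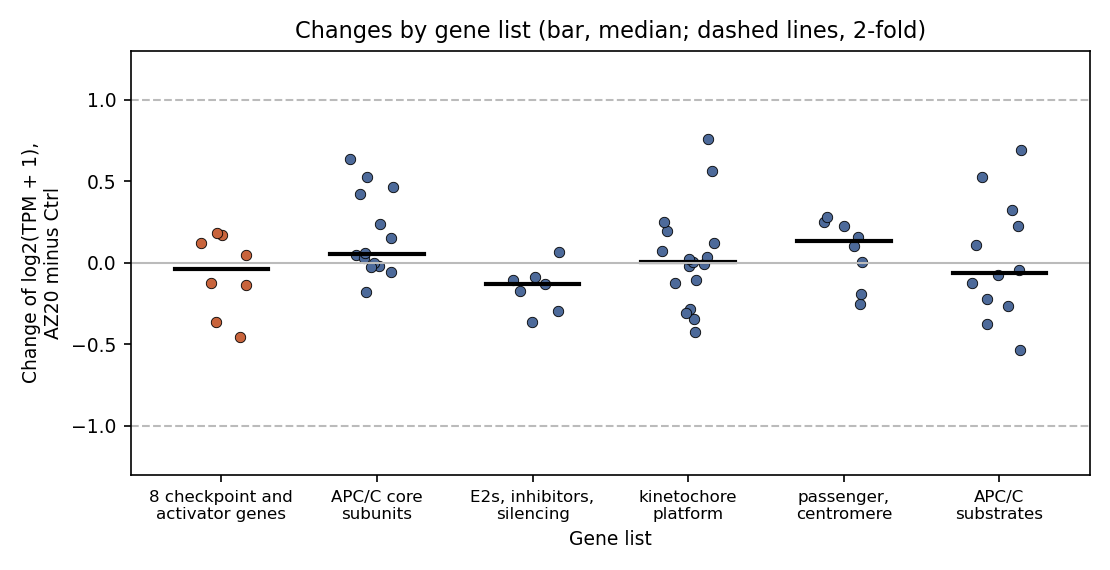
Change of log2(TPM + 1), AZ20 minus Ctrl, of each tested gene of the 8 checkpoint and activator genes (orange) and of the 5 pathway lists (blue), with bars at the medians and dashed lines at 2-fold. Every point lies inside 2-fold, from -0.54 (Ccna1) to 0.76 (Zwilch).

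For each member the tested gene with the most similar profile was found by the Euclidean distance of log2(TPM + 1) over the 4 libraries, a likeness of both level and pattern. It was Lrrc36 for Mad1l1 (distance 0.17), Rpl10a for Mad2l1 (0.11), Dbf4 for Bub1 (0.23), Ppp2r5c for Bub1b (0.15), Ppp3ca for Bub3 (0.16), Smim13 for Ttk (0.12), Tsnax for Cdc20 (0.15) and Scpep1 for Fzr1 (0.12). Dbf4, the activator of the replication kinase CDC7, was picked for its likeness to Bub1, and its distance was the largest of these. It had 32.0 and 36.5 TPM in Ctrl and 29.2 and 46.7 TPM in AZ20.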

How the data were processed

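RNA-seq libraries of cultured pachytene spermatocytes (Ctrl and AZ20, 2 each) were analysed. According to the methods and the submitters' processing notes, the authors used Trimmomatic 0.39 for trimming and STAR 2.5.4b for unique alignments to GRCm38/mm10, counted reads on UCSC refGene genes with featureCounts 2.0.1 and deposited TPM computed from the counts. Reads with more than 1 alignment were thus lost, which can lower genes with near-identical copies. Each column summed to 1000000, and 92 blank lines were left out.

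Log2(TPM + 1) of genes with a mean TPM above 1 in either group was fitted with limma 3.58.1 (R 4.3.3, intensity trend), with p-values adjusted over all 10316 genes. On this scale changes of low genes are understated. Libraries were paired by replicate number because the methods divide the cells of a mouse over both conditions. Which libraries share a mouse is not stated. Same-numbered libraries deviated together from their group means (correlation 0.229 over the genes tested). The number was left out of the model reported and entered as a replicate block in alternatives. The limma p-values rest on the spread between 2 libraries a group, drawn toward an intensity trend over all genes tested. Whole reads were recovered for 16856 of 16857 genes from ratios between libraries, in which gene length cancels, and were multiplied by a whole factor for 1869 genes whose implied length fell short of the GENCODE M21 exon length by that factor (within 3%). Other multiples could not be seen, so totals are approximate. Counting errors cover sampling of reads only.

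Alternatives were a pseudocount of 0.1, other filters (none, or a mean TPM above 5), the replicate block, quantile normalization, no trend, no minimum fold, voom on recovered reads (with and without the block) and leaving out each library. Scripts were tested on simulated data. Members and lists were chosen with earlier results of these data known. Named genes were the members, the extremes of change and the 2 most abundant genes of each list, any called gene, and the closest profile to each member. Anapc1, Anapc7, Anapc10, Pmf1 and Fbxo5 were named outside this rule. Promoters are RefSeq sequences (GRCm38.p6). Protein sequences were not used here. Python 3.11.15 with pandas 2.3.3 and scipy 1.17.1 gave the remaining values.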

Additional observations from a re-analysis of the deposited data

How the results depend on the processing

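Under the 13 alternatives, 0 of the 8 members and 0 of the 58 pathway genes were called in any, and the lowest adjusted p of a member was 0.459 (Fzr1, voom with the replicate block). The block changed no call of a member. The other filters, the block in limma, no trend and no minimum fold leave the log2 change of a member as it was. No direction could reverse under those settings, and their values are among the 96 counted as kept below. Of 104 member values, 96 kept their direction and 8 reversed, namely Ttk with quantile normalization (-0.0696), with voom (-0.0369), with voom and the block (-0.0328) and without AZ20 replicate 2 (-0.0739), Bub1 without Ctrl replicate 1 (-0.0355) or AZ20 replicate 2 (-0.16), Bub1b without AZ20 replicate 1 (0.0763) and Cdc20 without Ctrl replicate 1 (-0.0485). Leaving out each library in turn gave log2 changes of -0.16 to 0.52 for Bub1, -0.33 to 0.08 for Bub1b, -0.05 to 0.30 for Cdc20, -0.07 to 0.17 for Ttk, -0.59 to -0.13 for Mad1l1, -0.63 to -0.28 for Fzr1, -0.19 to -0.08 for Bub3 and 0.06 to 0.28 for Mad2l1. The Cdc20 to Fzr1 ratio, AZ20 over Ctrl, was then 1.195-fold to 1.955-fold, and that of Mad2l1 to Mad1l1 1.154-fold to 1.871-fold. That of Bub1b to Bub1 was 0.651-fold to 0.992-fold. Over all genes, 235 were called higher and 5 lower. With the replicate block these were 424 and 23. Lower calls numbered 1 with no filter on low values, 3 with voom and 11 with voom and the block. Leaving out each library in turn gave 0 to 200 called higher, with 0 without either AZ20 library, and 0 to 1 called lower, on fewer samples. What caused the remaining changes was not tested. With 2 libraries a group, the intervals of the members reached down to 0.486-fold (Fzr1) and up to 1.82-fold (Bub1). Each interval gives the changes of its own gene that the values allow, without adjustment over genes. These ends are not a detection limit. Under the criteria of the study a call also needed a change of 2-fold or more, so smaller changes could not be called whatever their interval.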
